A study of Mus musculus with 2 samples.

Results

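The DNA replication machinery was examined as a list of 46 genes among the 43346 Ensembl genes of the tables. The list holds the origin recognition complex, its licensing partners, the MCM2-7 helicase with GINS and CDC45, the DDK kinase, the 3 replicative polymerases, the sliding clamp and its loader, RPA, the enzymes that finish Okazaki fragments and the CAF-1 histone chaperone. Each symbol was matched by gene identifier, and all 46 were found. RNA came from 2 libraries of G1E-ER4, an immortalized mouse erythroid line labelled as male and C57BL/6J. It was derived from cells that lack Gata1 and carries GATA1 fused to the ligand-binding part of the estrogen receptor, so that factor works only with ligand. Both libraries are of cells given 10 nM 17beta-estradiol for 24 h. They are numbered 1 and 2 as biological replicates, and the labels do not say how the cultures were kept apart, or whether the line is a single clone. With 1 group and no untreated library analysed here, no effect of estradiol was measured; levels within a library and differences between the 2 libraries were.

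Replication starts when ORC, CDC6 and CDT1 load MCM2-7 onto DNA in the G1 phase, a step called licensing. In S phase, DDK and cyclin-dependent kinases turn each loaded MCM2-7 ring into the active helicase by adding CDC45 and GINS, and the polymerases, clamp and clamp loader follow. Many of these genes are known targets of the E2F transcription factors, which switch on genes for S phase, and terminal red cell differentiation is a process in which the last divisions are closely tied to maturation.

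Replicate 1 was the deeper library, with 62081014 expected counts against 41051163. The erythroid identity of the line was visible in both, with all 11 erythroid markers at 1 TPM or more and Gata1 at 60.05 and 73.23 TPM, although the rows do not separate the introduced form from the chromosomal gene. Myeloid and stromal markers were at or near 0. The 5 myeloid markers summed to 0.11 TPM in replicate 1 and 0.53 TPM in replicate 2, and the 4 stromal markers to 0 TPM in both, with Col1a1, Col1a2 and Cdh5 without a count. Of the mast cell and megakaryocyte markers, Kit, Itga2b and Gp1ba reached 1 TPM in both libraries.

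Averaged over the libraries, the replication genes as a group were near the level of an ordinary expressed gene. Their median was below that level in replicate 1 and above it in replicate 2. TPM is reads per effective transcript length, scaled to the same total in each library, so levels of different genes can be compared. In all, 43 of 46 members reached 1 TPM in both libraries, against 36.3% of the 21461 nuclear protein-coding genes. The median member stood at 5.46 TPM in replicate 1 and 8.075 TPM in replicate 2 (6.77 ± 1.85 TPM, mean of the medians ± SD, n = 2). Over the 7781 expressed nuclear protein-coding genes, those at 1 TPM or more in both libraries, the medians were 6.44 and 6.38 TPM. By their mean TPM, 22 members lay above the median of these expressed genes, which 50.0% of those genes exceed by definition. The members, unlike those genes, were not filtered at 1 TPM. Within each library, 20 members lay above its median in replicate 1 and 31 in replicate 2. The members Cdt1, Gins2 and Pold2 fell short of 1 TPM, each in replicate 1 only. These shortfalls depended on the unit. By FPKM all 46 members reached 1 in both libraries. They also did so once genes outside the nuclear protein-coding set were dropped from the TPM total. Mean levels ran from 1.26 TPM for Pold2 to 53.7 TPM for Orc2, a 42.6-fold range. For 41 members the deposited posterior SD of the count was 0 in both libraries, and the largest value was 25.2 reads.

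**Figure D1:**
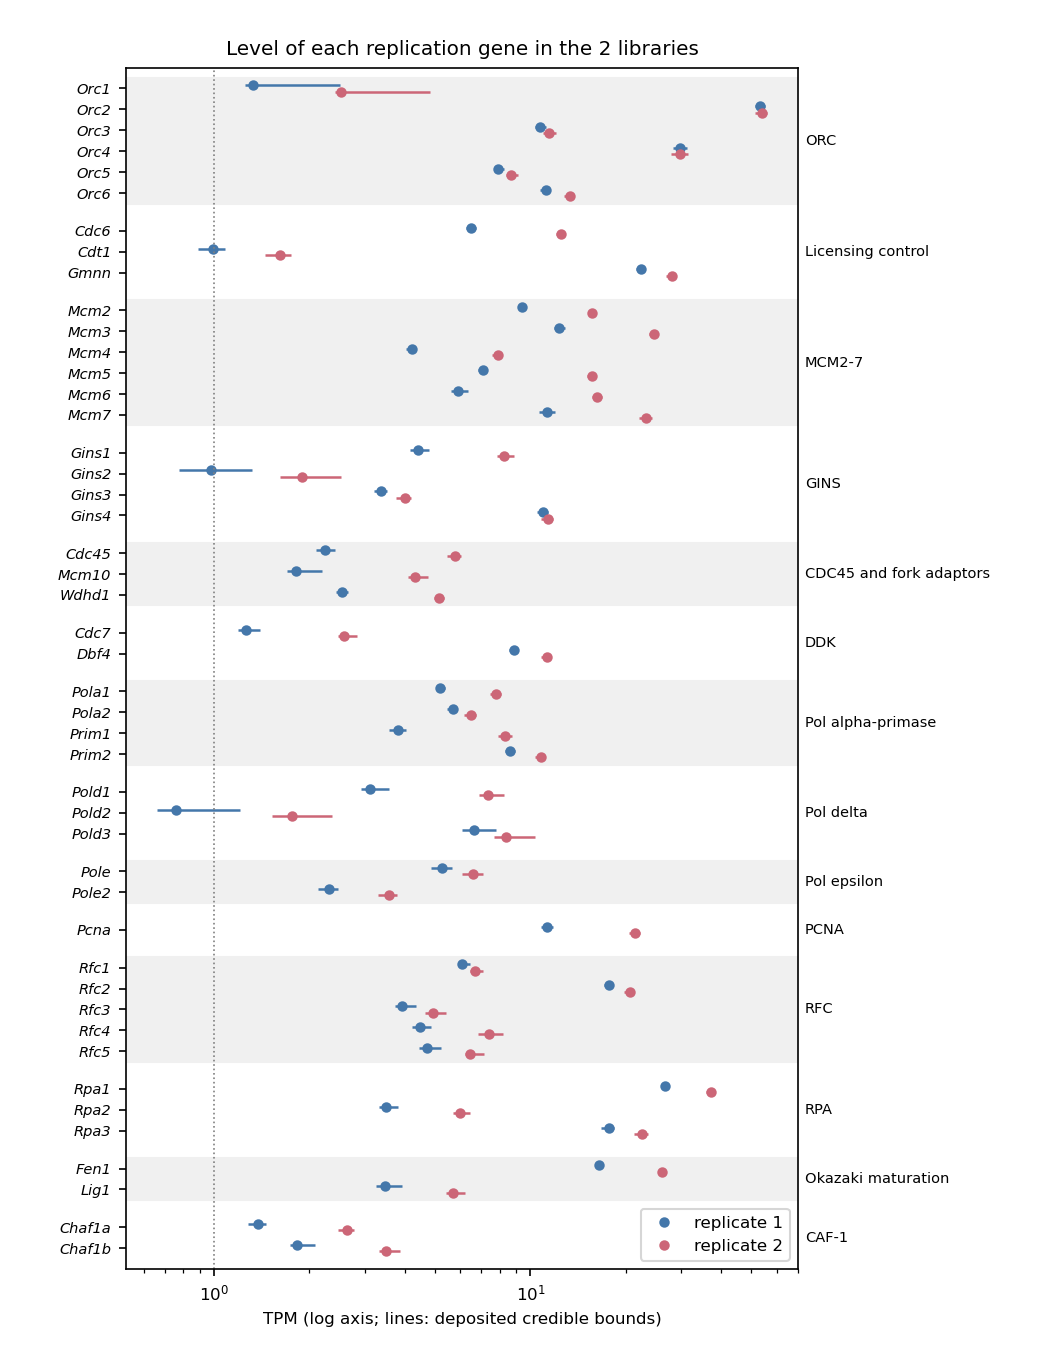
TPM of each of the 46 replication genes (log axis) in replicate 1 (blue) and replicate 2 (red), grouped by complex, with lines for the deposited credible bounds and a dotted line at 1 TPM. Orc2 is highest at 53.33 and 54.06 TPM, and Cdt1, Gins2 and Pold2 lie just under 1 TPM in replicate 1.

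Promoters were searched for the letters TTTCCCGC and TTTGGCGC, which are typical of E2F sites, on both strands of RefSeq windows of 300 bases (250 before and 50 after the start, GRCm38.p6). A window was found for 38 members. It was not found for Gmnn, Mcm4, Gins1, Gins2, Gins4, Prim2, Pole and Rfc2. Of the 38, 13 (34.2%) held either word in at least 1 window: Orc3, Cdc6, Cdt1, Mcm3, Mcm5, Mcm6, Mcm7, Gins3, Pola1, Pold1, Pold3, Pole2 and Rfc3. Counted per window, the same words occurred in 27.7% of the members' 47 windows. They occurred in 1.56% of all 32851 promoter windows and in 3.41% of the 7953 windows of expressed protein-coding genes. Counted per gene with any window, the share was 1.80% of 27025 genes. In 7 members the match lay before the RefSeq start of its window. Of these 7 stretches, the 4 that touch no exon of GENCODE M21 are shown. They are written 5′ to 3′ on the strand of the gene, with the matched letters in capitals. GENCODE places the start of Cdc6 further upstream, so its stretch lies within the annotated gene there.
Cdc6 (chr11:98907997-98908036, plus strand): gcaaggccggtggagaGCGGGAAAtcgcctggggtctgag
Mcm5 (chr8:75109344-75109383, plus strand): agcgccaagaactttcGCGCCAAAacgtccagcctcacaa
Mcm6 (chr1:128359729-128359831, minus strand): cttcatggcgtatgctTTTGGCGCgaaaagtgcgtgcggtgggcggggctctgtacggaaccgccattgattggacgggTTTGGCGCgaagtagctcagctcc
Pola1 (chrX:93632270-93632309, minus strand): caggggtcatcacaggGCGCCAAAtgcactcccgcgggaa
Mcm6 was the one member with 2 matches before its RefSeq start, beginning 110 and 47 bases before it. The matches of Orc3 and Gins3 each began 41 bases before the RefSeq start and that of Mcm7 began 165 bases before it. The remaining matches, in Cdt1, Mcm3, Pold1, Pold3, Pole2 and Rfc3, began at the start or within the 50 bases after it, and Mcm3 held 2 of them. A match is a run of letters and was not tested as a binding site.

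Taken over all transcripts of a gene, every one of the 46 members was higher in replicate 2 than in replicate 1. Counts were scaled with TMM factors to CPM, a share of the library's counts, and the ratio of replicate 2 to replicate 1 was taken for each gene. The members' median ratio was 1.70-fold (0.76 on the log2 scale), and over all 9777 genes whose counts averaged 100 or more it was 1.00-fold. At 1.5-fold or more, 28 of the 46 members were higher in replicate 2 and 0 in replicate 1, where 5.22% and 2.64% of the 9777 genes passed in those directions. At 2-fold, 11 members were higher in replicate 2, against 1.63% of all genes, and 0 in replicate 1, against 0.47%. A ratio above 1 in itself was common, in 50.5% of genes. The deposited credible bounds of TPM lay wholly higher in replicate 2 for 39 members, against 19.7% of genes, and wholly higher in replicate 1 for none of the members, against 26.6%. Summed over the members, TPM went from 391 in replicate 1 to 552 in replicate 2, or from 0.278% to 0.384% of the TPM of nuclear protein-coding genes. This is a comparison of 1 library with 1 library of the same treatment, so it has no replicate check and no p-value. Because the RNA is from bulk cultures, more cells in S phase and more replication RNA per cell cannot be told apart.

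The size of the difference was uneven between complexes, and the plot of ratios by gene shows where it was large. The median ratio was 2.49-fold for CDC45 with the fork adaptors, 2.18-fold for polymerase delta and 2.03-fold for MCM2-7. It was 1.97-fold for CAF-1 and 1.95-fold for the clamp Pcna, and 1.11-fold for ORC. The 28 members past 1.5-fold had a median mean level of 5.40 TPM and the other 18 one of 10.6 TPM. No gap marked the threshold, with Pola1 just below it at 1.49-fold and Pole2 just above at 1.59-fold.

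**Figure D2:**
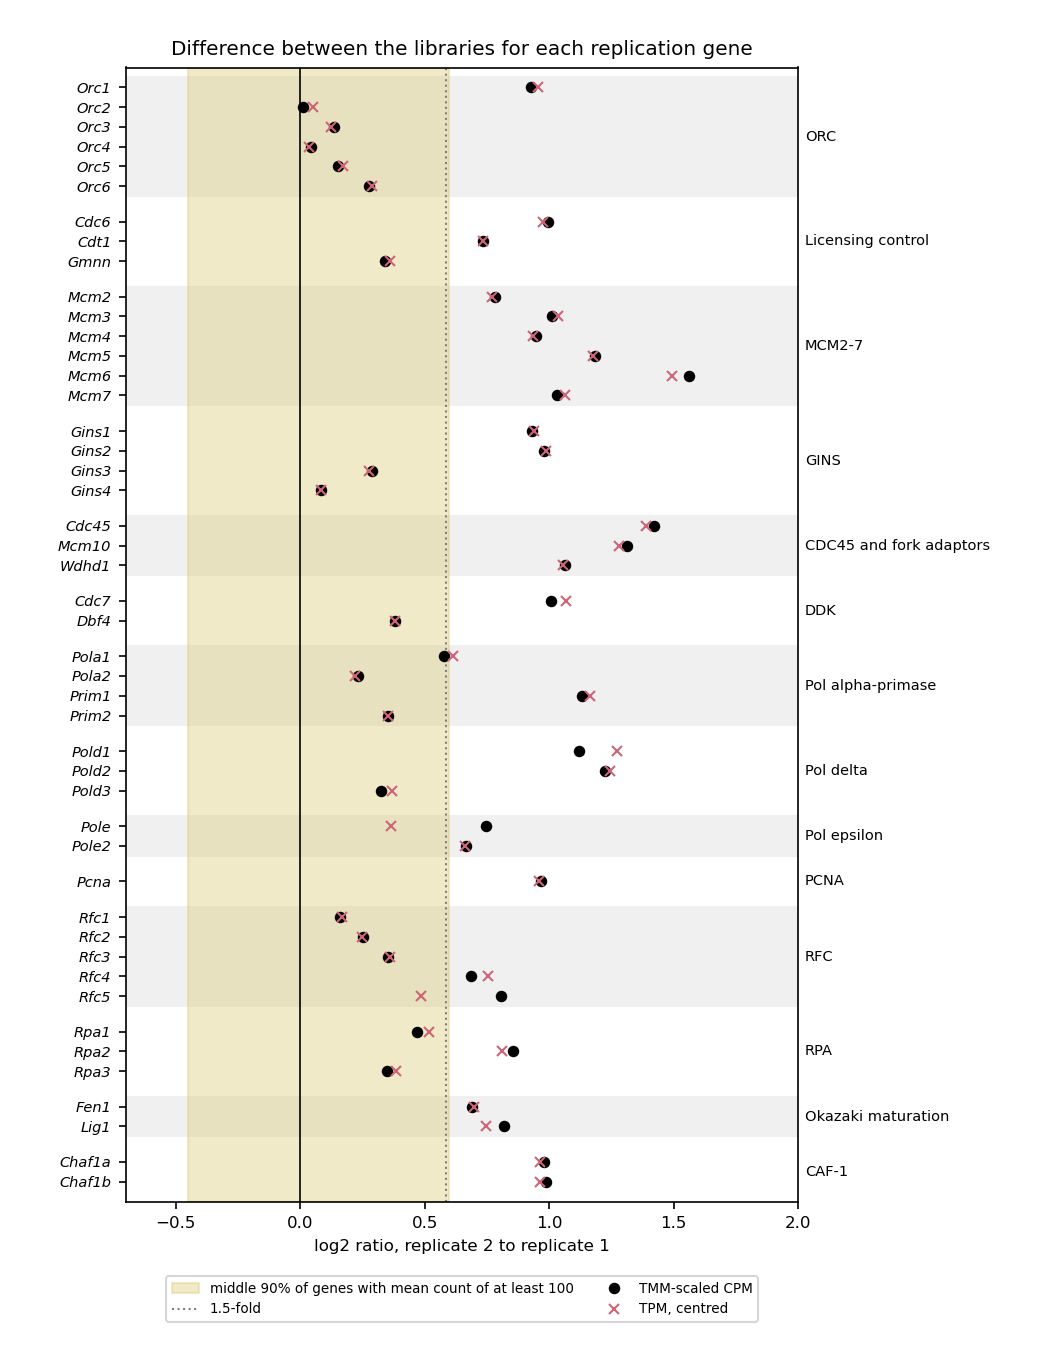
Log2 ratio of replicate 2 to replicate 1 for each of the 46 genes, grouped by complex, from TMM-scaled CPM (black dots) and from centred TPM (red crosses), with the middle 90% of 9777 genes shaded and a dotted line at 1.5-fold. All points lie above 0, Mcm6 lies farthest out at 1.56, and Pole, Rfc5 and Pola1 are the genes whose dot and cross stand on different sides of 1.5-fold.

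ORC marks the sites where replication can start, and all of its subunits but ORC1 differed little between the libraries. Orc2 was measured at 53.33 TPM in replicate 1 and 54.06 TPM in replicate 2 (28894 and 19480 counts; gene at chr1:58462771-58505109, minus strand), a ratio of 1.01-fold. Orc4 was at 29.71 and 29.72 TPM, Orc3 at 10.76 and 11.46 TPM, Orc5 at 7.92 and 8.71 TPM and Orc6 at 11.17 and 13.33 TPM. These 5 subunits lay between 1.01-fold and 1.21-fold. Orc1, the subunit known to be degraded in S phase, was at 1.33 and 2.52 TPM, which is 1.90-fold higher in replicate 2. For Orc1 the credible bounds were wide and overlapped (1.26 to 2.50 TPM and 2.40 to 4.83 TPM). The 6 subunits stood in the same order in both libraries, and Orc2 exceeded Orc1 by 40.1-fold in replicate 1 and 21.5-fold in replicate 2. Transcript types bear on 2 of these levels: 68.7% of Orc4 TPM and 44.2% of Orc3 TPM belonged to transcripts annotated as processed transcripts, which have no reading frame in the annotation. Counting protein-coding transcripts alone, Orc4 stood at 10.07 and 8.5 TPM and Orc3 at 6.24 and 6.14 TPM, both lower in replicate 2.

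Among the licensing factors, the loader genes differed more than their inhibitor. Cdc6, which recruits CDT1 and MCM2-7 to ORC, was at 6.51 and 12.51 TPM, 2.00-fold higher in replicate 2. Cdt1, the helicase-loading partner, was at 0.99 and 1.61 TPM (404 and 450 counts; 1.66-fold). Gmnn encodes geminin, which binds and blocks CDT1 once S phase has begun. It was at 22.3 and 28.01 TPM, a ratio of 1.27-fold. Geminin RNA therefore exceeded Cdt1 RNA by 22.5-fold in replicate 1 and 17.4-fold in replicate 2, the widest ratio in this trio, and the order Gmnn, Cdc6, Cdt1 held in both.

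All 6 helicase subunits passed 1.5-fold. Mcm6 showed the largest ratio of the 46 members, from 5.92 TPM (credible bounds 5.61 to 6.34) to 16.28 TPM (15.67 to 16.87), 2.95-fold on 2878 and 5685 counts (gene at chr1:128331590-128359664, minus strand). It ranked 17th among the 9777 genes. Mcm5 went from 7.08 to 15.63 TPM (2.28-fold), Mcm7 from 11.31 to 23.14 TPM (2.04-fold) and Mcm3 from 12.29 to 24.63 TPM (2.01-fold). Mcm4 was at 4.22 and 7.88 TPM (1.93-fold) and Mcm2 at 9.39 and 15.66 TPM (1.72-fold). The credible bounds of each subunit were apart between the libraries. Their summed TPM was 50.2 in replicate 1 and 103 in replicate 2. MCM2-7 is a ring with 1 copy of each subunit, and RNA levels within it differed by 2.91-fold and 3.13-fold between Mcm3, the highest, and Mcm4, the lowest. The order between them was not fixed. Mcm6 was 5th of 6 in replicate 1, at 0.630 times Mcm2, and 3rd in replicate 2, at 1.04 times Mcm2. Mcm7 overlaps Cops6 and Ap4m1 on the opposite strand and hosts 3 microRNA genes. The use of strand in the counting is not given, while the posterior SD of its count was 0 in both libraries.

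CDC45 and the fork adaptors, which join the ring when it fires, were low and differed strongly. Cdc45 was at 2.25 and 5.76 TPM (855 and 1531 counts), 2.68-fold higher in replicate 2 and second to Mcm6 among the members. Mcm10, needed for the helicase to start unwinding, was at 1.82 and 4.32 TPM (2.49-fold). Wdhd1, the adaptor that ties the helicase to polymerase alpha, was at 2.54 and 5.16 TPM (2.09-fold). The 4 GINS subunits, which form 1 tight complex, did not behave alike. Gins4 was at 10.99 and 11.38 TPM, 1.06-fold, and Gins3 at 3.38 and 4.0 TPM, 1.22-fold. Gins1 was at 4.41 and 8.27 TPM, 1.91-fold, and Gins2 at 0.98 and 1.9 TPM, 1.97-fold on 325 and 429 counts. Gins4 thus exceeded Gins2 by 11.2-fold in replicate 1 and 5.99-fold in replicate 2. The Gins2 level rests on transcript choice, because 60.7 ± 0.438% of its TPM was assigned to a processed transcript of 473 bases on 33.0 and 42.0 counts, while its coding transcript held 236 and 363 counts. In DDK, the catalytic subunit Cdc7 was at 1.26 and 2.58 TPM (2.01-fold) and its activator Dbf4 at 8.85 and 11.27 TPM (1.30-fold). Dbf4 exceeded Cdc7 by 7.02-fold and 4.37-fold.

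Polymerase alpha makes the RNA-DNA primers, and its catalytic and primase subunits differed from their partners. Prim1, the catalytic primase, was at 3.81 and 8.34 TPM (2.19-fold), and its partner Prim2 at 8.65 and 10.79 TPM (1.28-fold). The polymerase subunit Pola1 was at 5.19 and 7.77 TPM (1.49-fold) and the accessory Pola2 at 5.68 and 6.47 TPM (1.17-fold). Prim2 was therefore 2.27-fold above Prim1 in replicate 1 and 1.29-fold above it in replicate 2. Within polymerase delta, which copies the lagging strand, the catalytic Pold1 was at 3.1 and 7.33 TPM (2.18-fold). Pold2, the scaffold subunit and the lowest member by mean level, was at 0.76 and 1.76 TPM (170 and 266 counts; 2.33-fold). Pold3 was at 6.62 and 8.35 TPM (0.32 on the log2 scale). For polymerase epsilon of the leading strand, Pole was at 5.24 and 6.59 TPM and Pole2 at 2.31 and 3.57 TPM (1.59-fold). The Pole ratio depended on length scaling: it was 1.68-fold by counts but only 0.36 on the log2 scale by centred TPM. Its full-length transcript Pole-201 held 37.91% of Pole TPM in replicate 1 and 52.5% in replicate 2, and the short Pole-203 held 29.95% and 14.94% on 175 and 73.9 counts. Rfc5 behaved in the same manner, with 0.81 on the log2 scale by counts and 0.49 by centred TPM.

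The clamp and its loader also parted. Pcna, the ring that holds polymerases on DNA, was at 11.29 and 21.45 TPM (2846 and 3717 counts), 1.95-fold higher in replicate 2. Of the loader subunits, Rfc1 was at 6.1 and 6.69 TPM (1.12-fold), Rfc2 at 17.76 and 20.63 TPM (1.19-fold) and Rfc3 at 3.92 and 4.92 TPM (1.28-fold). Rfc4 was at 4.48 and 7.39 TPM (1.61-fold) and Rfc5 at 4.72 and 6.46 TPM (1.75-fold by counts). Rfc2 led the complex in both libraries and exceeded Rfc3, the lowest, by 4.53-fold and 4.19-fold. Pcna stood at 0.636 times Rfc2 in replicate 1 and at 1.04 times in replicate 2. RPA coats single-stranded DNA as a trimer. Its large subunit Rpa1 was at 26.62 and 37.24 TPM (1.38-fold), Rpa3 at 17.66 and 22.53 TPM (1.27-fold) and Rpa2, the subunit that is phosphorylated under replication stress, at 3.5 and 6.0 TPM (1.81-fold). Rpa1 exceeded Rpa2 by 7.61-fold and 6.21-fold.

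Enzymes that process the finished strands differed by similar factors. Fen1, the flap nuclease, was at 16.48 and 26.1 TPM (1.61-fold), and Lig1, the ligase that seals Okazaki fragments, at 3.48 and 5.71 TPM (1.76-fold). Fen1 exceeded Lig1 by 4.74-fold in replicate 1 and 4.57-fold in replicate 2. The CAF-1 subunits, which place histones on new DNA, were at 1.38 and 2.63 TPM for Chaf1a (1.97-fold) and at 1.83 and 3.49 TPM for Chaf1b (1.98-fold). Chaf1b stood 1.33-fold above Chaf1a in each library, the steadiest ratio between the highest and lowest member of a complex. The order of subunits was the same in both libraries for 9 of the 13 groups with more than 1 gene. It changed in MCM2-7, the fork adaptors with Cdc45, polymerase alpha-primase and RFC.

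Members with and without the E2F-type letters were set side by side for the difference between libraries. The 13 members with a match had a median log2 ratio of 0.74 and the 25 without a match one of 0.81. Past 1.5-fold were 8 of the 13 and 16 of the 25. Members with a match included Mcm6 at 2.95-fold and Orc3 at 1.10-fold, and Cdc45, with no match in its window, was at 2.68-fold. No test was made of this split.

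**Figure D3:**
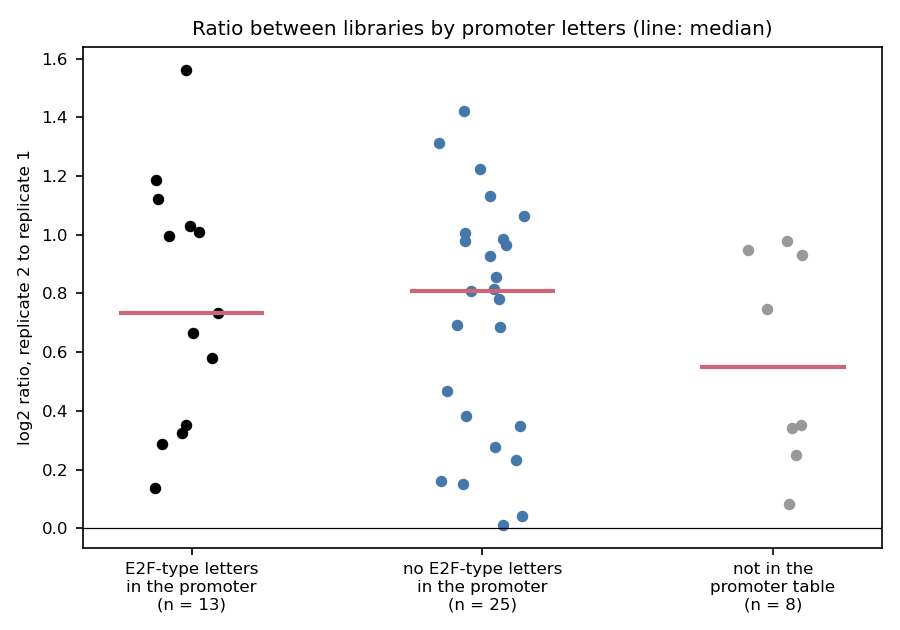
Log2 ratio of replicate 2 to replicate 1 (TMM-scaled CPM) for members with E2F-type letters in a promoter window (13), without them (25) and with no window in the table (8); each point is a gene and each line the group median. The first 2 groups overlap, with medians of 0.74 and 0.81.

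Genes outside the list that act at or near the fork were mostly higher in replicate 2 as well, by a smaller median ratio. Of 57 related replication genes, 21 were 1.5-fold or more higher in replicate 2 and 0 in replicate 1, with a median ratio of 1.39-fold. In origin firing these were Ccne2 (2.04-fold), Ticrr (1.81), Recql4 (1.80), Topbp1 (1.56) and Mtbp (1.51), while Ccne1, the most abundant, was at 16.7 and 23.86 TPM (1.42-fold). In fork protection they were Timeless (2.50), Clspn (2.49), Chek1 (2.09) and Rad1 (1.51), with Rad17 the most abundant by its mean, at 13.5 and 12.9 TPM, although Tipin was higher in replicate 2 at 13.23 TPM. Among alternative clamp loaders Chtf18 (1.96) and Atad5 (1.57) passed, and Chtf8 was the most abundant at 12.88 and 16.37 TPM. By TPM, 3 of these calls fell short of 1.5-fold: Chtf18 was at 1.65 and 1.97 TPM with overlapping credible bounds, Mtbp at 5.91 and 7.53 TPM and Rad1 at 2.32 and 3.3 TPM. The bounds of Chek1 overlapped too. Uhrf1 (2.61), Asf1b (1.93), Dnmt1 (1.59) and Nasp (1.55) passed among genes that restore chromatin, led by Supt16 at 35.59 and 38.21 TPM. Turnover factors past the fold were Lrr1, the highest of all at 3.36-fold on 73 and 165 counts, Dtl (2.08), Traip (1.79) and Skp2 (1.56), and Ddb1 led them at 76.91 and 84.01 TPM. Top2a was at 48.85 and 83.18 TPM (1.78-fold) and Dna2 at 0.45 and 0.85 TPM (1.61-fold). The most abundant gene for removing RNA primers, Rnaseh2a, was at 32.56 and 51.52 TPM, past 1.5-fold by TPM but 1.40-fold by counts. The clamp loader gene Dscc1, at 0.9 and 1.36 TPM, likewise passed by TPM but not by counts (1.44-fold). No gene passed among the MCM relatives, the further polymerase subunits or the 7 translesion synthesis genes, where the most abundant genes by mean TPM, Mcmbp, Pold4 and Rev1, had ratios of 1.07-fold, 0.875-fold and 0.966-fold. Recql4, Mcm9, Dna2, Skp2 and Lrr1 were under 1 TPM in both libraries, by TPM as deposited.

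Other genes of dividing cells were also higher in replicate 2. All 20 mitosis genes were higher in replicate 2, 16 of them by 1.5-fold or more, with a median ratio of 1.86-fold. The most abundant by mean were Ccnb1 at 38.72 and 61.71 TPM, Ube2c at 33.15 and 46.64 TPM and Tpx2 at 21.76 and 27.81 TPM. Of the 59 histone genes that averaged 100 counts or more, 55 passed 1.5-fold and their median ratio was 2.22-fold; many are near-identical copies. The erythroid markers had a median ratio of 1.26-fold, and 2 of 11 passed 1.5-fold, Hbb-bs (1.88-fold) and Slc4a1 (1.57-fold). Depth also differed between the libraries, as given above, and the part of any of these in the replication gene differences was not tested.

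**Figure D4:**
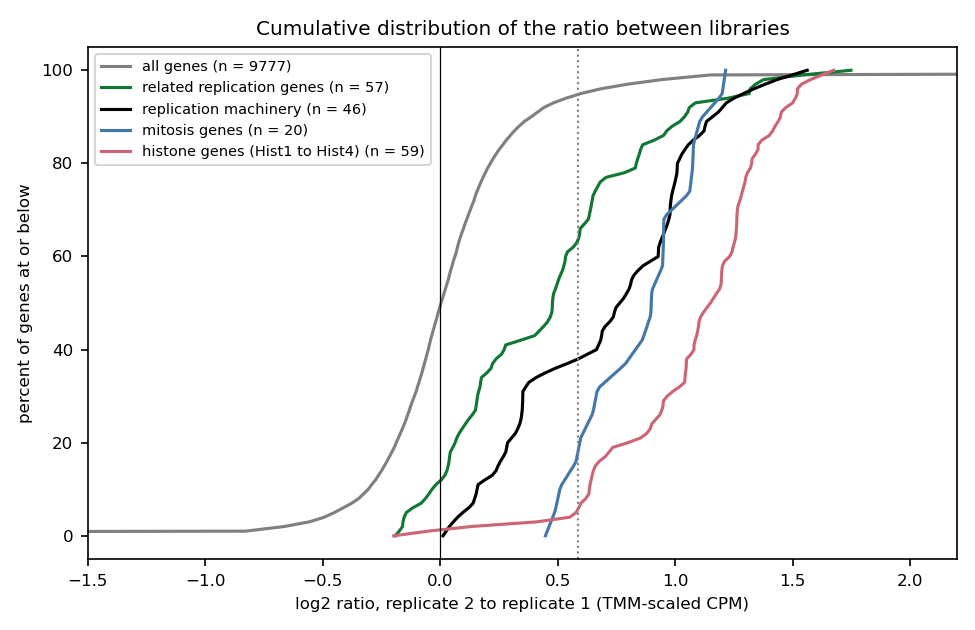
Cumulative percent of genes at or below each log2 ratio of replicate 2 to replicate 1 (TMM-scaled CPM), for all 9777 genes averaging 100 counts or more, the 46 replication genes, 57 related replication genes, 20 mitosis genes and 59 histone genes; the dotted line is 1.5-fold. The medians are 1.00, 1.70, 1.39, 1.86 and 2.22-fold in that order.

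Most members made mainly 1 coding transcript. The leading transcript held a median of 87.0% of a member's TPM, against 79.9% over expressed protein-coding genes. It was annotated as protein coding in 43 members, held 90% or more in 20 and held under 50% in 8. Of the 20, 9 have only 1 transcript in the tables, so their share of 100% was fixed by the annotation. Retained-intron transcripts were annotated and had TPM values in 27 members, with a median share of 10.1%, against 11.7% over the 3485 expressed genes that have such a transcript. By shares of TPM, the polymerase subunits were uneven in this class. Retained introns held 47.2 ± 1.63% of Pold3 TPM, 37.5 ± 14.3% of Pold1, 32.4 ± 0.297% of Pole and 31.4 ± 0.742% of Pold2 (SD, n = 2). The shares were lower in Prim1 (9.76 ± 0.962%), Prim2 (4.57 ± 1.33%) and Pola1 (2.78 ± 0.417%), and Pola2 and Pole2 had no such transcript in the tables. Shares of TPM give weight to short transcripts. By counts, retained-intron forms held 9.90% and 11.6% of Pold3 and 4.59% and 10.9% of Pold1. They held 8.38% and 8.40% of Pold2 and 17.3% and 14.5% of Pole. For Prim1, Prim2 and Pola1 the count shares were 10.5% and 9.79%, 6.54% and 4.34%, and 2.11% and 1.76%. By counts Prim1 thus stood below Pold1 and Pold3 in replicate 2 only, and above Pold2 in both libraries. In Cdc7 the retained-intron share of TPM was 35.18% in replicate 1 and 20.95% in replicate 2, and the coding Cdc7-201 held 54.53% and 68.19%. Rfc1 could not be typed, since 71.5% of its TPM belonged to transcripts with no type in the annotation used.

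**Figure D5:**
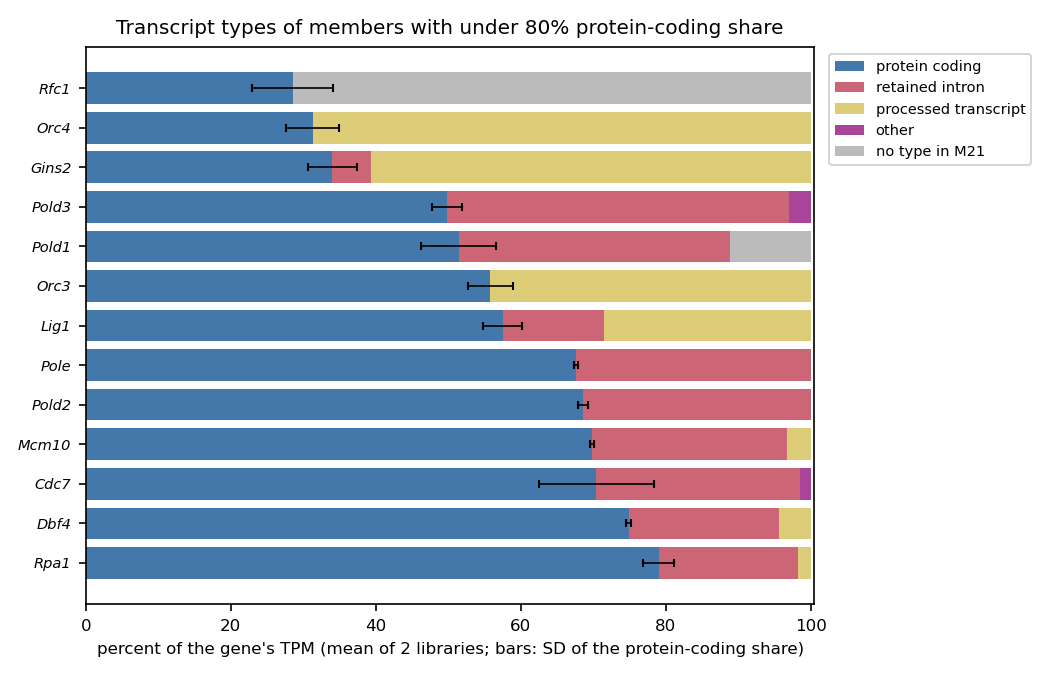
Percent of TPM by transcript type (mean of 2 libraries) for the 13 members whose protein-coding share was under 80%, with error bars for the SD of the protein-coding share. Retained introns take 47.2% of Pold3 and 32.4% of Pole, and processed transcripts take 68.7% of Orc4 and 60.7% of Gins2.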

How the data were processed

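RNA was measured in 2 libraries. Each used 100 ng of RNA depleted of ribosomal RNA and the ScriptSeq chemistry, and the labels give sizes of 200 to 1000. The authors deposited expected counts, TPM, FPKM and posterior mean TPM per gene and per transcript, with credible bounds and a posterior SD for counts. For each transcript, the deposited tables also give its percent of the TPM of the gene, per the file headers. GENCODE M4 is the annotation, per the deposited file lists, and mm10 the build. The quantifier, the aligner, the use of strand and the level of the bounds are not given in the sources used here.

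Gene symbols came from GENCODE M21 on the same assembly, joined on identifiers without version, which matched 42462 of 43346 genes. The 26345 other rows held at most 2.9e-05% of counts and stayed out. Expected counts were rounded, filtered with filterByExpr (11657 genes kept) and scaled with TMM factors of 0.994 and 1.01 in edgeR 4.0.16 under R 4.3.3. Ratios used log2 CPM with a prior count of 0.5. The computation of ratios was checked on simulated counts with known folds. Size factors from DESeq2 1.42.0 served as another scaling. Summaries used Python 3.11.15. Genes had no test, as the series has 1 group with 2 libraries.

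Members, gene lists and thresholds were chosen with earlier results of these data known. Genes named are all 46 members, and of the related genes the highest of each role, those past 1.5-fold and those under 1 TPM in both. Lymphoid markers are not reported here. Intervals are given per library and cover counting and assignment error within it only, not differences between cultures. Reads carry no molecular identifiers.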

Additional observations from a re-analysis of the deposited data

How the results depend on the processing

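Alternatives changed the threshold, the unit, the scaling and the libraries used. All 46 members stayed higher in replicate 2 under each of the 5 scalings, and 26 stayed past 1.5-fold under all of them. The scalings are not independent, so their agreement is partly built in. TMM with a prior count of 0.5 or 5 and DESeq2 size factors use the same counts. TPM as deposited and centred TPM differ by a constant on the log2 scale. These scalings took all transcripts of a gene together. With protein-coding transcripts only, TPM was lower in replicate 2 for Orc3 (6.24 and 6.14) and Orc4 (10.07 and 8.5). Pola1 came to 0.62 on the log2 scale with centred TPM; Pole came to 0.33 and 0.36 and Rfc5 to 0.45 and 0.49 with TPM as deposited and centred. With a 2-fold limit 11 members passed. At 5 TPM in both libraries 25 members remained, and at 0.5 TPM all 46 did. At a limit of 1, all 46 also passed by FPKM and by TPM shared out among nuclear protein-coding genes alone. With no filter on low values, all 46 lay above the median of protein-coding genes. Leaving out a library moved the median leading share to between 85.3% and 87.6%, and by counts it was 91.8%. With the letters TTNNCGC 81.6% of members had a match in any window, or 72.3% of their windows, against 20.2% of all windows and 35.9% of windows of expressed protein-coding genes.

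The log2 ratio of the highest to the lowest subunit on counts not divided by length was 2.89 for licensing control, 1.26 for MCM2-7, 0.36 for polymerase alpha-primase, 2.40 for polymerase epsilon, 2.32 for RFC, 3.47 for RPA and 2.01 for Okazaki maturation. It turned to -0.25 for Cdc45 over Mcm10 and to -0.48 for Chaf1b over Chaf1a; this alternative leaves out transcript length. With posterior mean TPM it was 2.17 for Okazaki maturation and 0.47 for CAF-1. An alternative chosen after seeing the data kept protein-coding transcripts only. It gave 1.47 for MCM2-7, 4.60 for GINS, 0.88 for Cdc45 over Mcm10, 0.47 for polymerase epsilon, 2.41 for RFC, 3.01 for Okazaki maturation and 0.28 for CAF-1, and medians of 8.19 TPM for ORC, 4.47 TPM for DDK and 3.47 TPM for polymerase epsilon. No paired analysis was possible because the series has 1 group. With 2 libraries, a library left out leaves no ratio.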

Other observations

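Other short words were counted in the 38 members with a promoter window. GGGCGG, the core of a GC box, was found in 78.9% of them, CCAAT in 57.9%, TTTGAA or TTCGAA in 23.7% and AGATAA or TGATAA, which are GATA-type words, in 10.5%. Over the windows of expressed protein-coding genes the same words were found in 65.5%, 39.4%, 14.3% and 9.83%. The members' shares count a gene once if any of its windows matches. Counted per window, as for the expressed genes, they were 74.5%, 51.1%, 21.3% and 8.51%. The GATA-type share was then below that of expressed genes. The 4 members with a GATA-type word were Orc2, Cdc45, Pold2 and Fen1.

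Annotated genes overlap 24 of the 46 members, on the opposite strand in 19. Orc6 overlaps Vps35, Cdc45 overlaps Ufd1, Rfc4 overlaps Eif4a2 and Fen1 overlaps Tmem258. The use of strand in the counting is not given; the posterior SD of the count was 0 in both libraries for these 4 members.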
